A study of Mus musculus with 2 samples.

Results

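Expression of 10 genes of the NRF2 pathway was read in cultured hepatocytes from control and *Drp1*LiKO animals. NRF2, the product of *Nfe2l2*, is a transcription factor that raises the expression of antioxidant and detoxifying enzymes. The members are *Nfe2l2*, *Keap1*, *Nqo1*, *Hmox1*, *Gclc*, *Gclm*, *Srxn1*, *Txnrd1*, *Slc7a11* and *G6pdx*. They were taken by gene name from the array design, with all of their probes, which gave 16 of 56605 probes and 10 of 37074 gene names. One array was hybridized per genotype, so no difference has a replicate check and none was tested. Every value describes these 2 arrays.

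The control cells came from *Drp1*flox/flox mice, littermates without Cre according to the methods, and are labeled as wild type control. The *Drp1*LiKO cells came from *Alb-Cre* Tg/+ *Drp1*flox/flox mice, so both genotypes carry floxed *Drp1* alleles, and both are on the C57BL/6 background. Cre is driven by the albumin promoter, which is active in hepatocytes. Whether other cells of the liver keep *Drp1* was not tested here. Hepatocytes were obtained by collagenase perfusion and low-speed centrifugation, plated on collagen and harvested 24 h after seeding, and no treatment is given for these cultures. The age and sex of these mice and the number of mice behind each array are not given in the sources used here. RNA was labeled with Cy3 and each array was read in 1 color.

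In cells without stress, KEAP1 holds NRF2 in the cytoplasm and hands it to a CUL3 ubiquitin ligase, so that NRF2 is degraded soon after it is made. Oxidants and electrophiles modify cysteines of KEAP1, NRF2 then accumulates in the nucleus, pairs with a small MAF protein and binds the antioxidant response element in DNA. Its activity is therefore set mainly by protein stability, which arrays do not measure. In liver the pathway is known for glutathione synthesis and for the clearance of drugs and other foreign compounds.

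The probes that these values rest on are 60-base oligonucleotides. Those of *Keap1* and *Gclm* and 1 of the *Txnrd1* probes are shown, because the first crosses a splice junction, the second reports a subunit of glutathione synthesis, and the third gave the larger difference of the *Txnrd1* pair. The *Keap1* probe covers 441 bases of chromosome 9 in mm9 (21035292 to 21035732, minus strand), the *Gclm* probe lies on chromosome 3 from 121967737 to 121967796 (plus strand) and the *Txnrd1* probe on chromosome 10 from 82338379 to 82338438 (plus strand). The sequences are those of the array files, 5′ to 3′.
Keap1 probe: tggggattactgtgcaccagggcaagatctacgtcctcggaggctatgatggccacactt
Gclm probe: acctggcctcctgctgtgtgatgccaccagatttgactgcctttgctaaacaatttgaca
Txnrd1 probe: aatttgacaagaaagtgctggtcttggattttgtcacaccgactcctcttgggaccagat

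Promoter windows of RefSeq (GRCm38.p6), from 250 bases before to 50 bases after a gene's start, were searched for the antioxidant response element TGACNNNGC on both strands. Windows of 8 member genes were found, 10 windows in all, and *Gclc* and *Hmox1* are named only. Of these 8 genes, 5 held a match (62.5%), against 14.0% of 27025 genes with a window and 12.4% of 32851 windows. The matches of *Gclm*, *Txnrd1*, *G6pdx* and *Nfe2l2* lay before the start, and that of *Srxn1* lay 29 to 37 bases after it. A match is a run of letters and not a site shown to be bound, and for several of these genes known elements lie farther upstream than the window. The 250 bases before the start are printed for the matches of *Gclm* and *Txnrd1*, subunit and enzyme of the glutathione and thioredoxin systems, and of *Nfe2l2* itself, with 30 bases around the match of *Srxn1*. All run 5′ to 3′ along the strand of the gene, and capitals mark the match.
Gclm, chr3:122245307-122245556, plus strand: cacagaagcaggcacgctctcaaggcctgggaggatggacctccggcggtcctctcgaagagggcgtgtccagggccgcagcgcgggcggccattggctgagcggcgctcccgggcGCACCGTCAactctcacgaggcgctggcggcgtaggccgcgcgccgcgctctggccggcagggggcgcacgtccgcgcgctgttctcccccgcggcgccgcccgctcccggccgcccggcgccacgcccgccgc
Txnrd1, chr10:82858956-82859205, plus strand: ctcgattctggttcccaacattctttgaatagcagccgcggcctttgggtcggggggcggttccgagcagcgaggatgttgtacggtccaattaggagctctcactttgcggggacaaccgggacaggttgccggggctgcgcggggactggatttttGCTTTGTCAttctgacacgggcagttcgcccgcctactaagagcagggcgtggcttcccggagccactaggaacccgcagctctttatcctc
Nfe2l2, chr2:75704664-75704913, minus strand: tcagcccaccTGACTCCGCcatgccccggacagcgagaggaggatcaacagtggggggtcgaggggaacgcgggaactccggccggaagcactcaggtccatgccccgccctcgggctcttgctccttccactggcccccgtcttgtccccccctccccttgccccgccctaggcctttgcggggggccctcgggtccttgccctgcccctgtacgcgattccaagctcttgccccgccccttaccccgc
Srxn1, chr2:152105541-152105570, plus strand: ggcagtgggcaGCTAGGTCAgagtgagaca

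The match began 134 bases before the start in *Gclm*, 92 in the window of *Txnrd1*, 57 in *G6pdx* and 240 in *Nfe2l2*. The windows of *Keap1*, *Nqo1* and *Slc7a11* and the other windows of *Txnrd1* held no run of these letters.

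For 20165 gene names a probe was well above background on at least 1 array, and for 17759 on both. Shares of all genes refer to the 20165 unless another number is given. Of the probes, 48.2% in control and 52.1% in *Drp1*LiKO cells were well above background. *Dnm1l*, which encodes DRP1, gave signals of 2602 (control) and 1217 (*Drp1*LiKO), a log2 ratio of -1.28 after scaling, the direction that the labels call for. Its other probe, dim on both arrays, stood at -0.31, and whether either probe lies in the deleted exons was not analysed here. The ratio of a probe is the log2 processed signal in *Drp1*LiKO minus that in control cells, with each array scaled to its own 75th percentile, which took 0.18 off each raw log2 difference. The software's own error model gave an error of about 10.0% for a bright signal and so 0.20 on the log2 scale for a ratio of such signals. This error covers the spot and not the culture, and differences between animals or cultures of 1 genotype could not be measured.

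Of the 10 members, 8 had a higher and 2 a lower signal in *Drp1*LiKO cells at their brightest probe, where 44.5% of all genes compared were higher. Their median log2 ratio was 0.45, against -0.05 for all genes. The ratio exceeded the software's error in 7 members upward and in 1 downward, where 22.6% of all genes did so upward and 28.0% downward. All genes include dim ones, whose error is larger, whereas the error of each member's brightest probe was about 0.20. These shares are therefore not of equally bright genes. At 1.5-fold, 2 members were past the limit in the upward direction, *Srxn1* and *Hmox1*, and 10.3% of all genes were. *Hmox1* was lower, not higher, in the deposited normalized values. No member lay 1.5-fold lower, where 10.3% of all genes did. At a Z score of 2, the criterion by which the study selected genes and equal here to 2.46-fold, 0 members passed, and 3.5% of all genes were higher and 2.81% lower past it. The highest Z score of a member was 1.45, that of *Srxn1*. The count depended on the setting, since 3 members (*Srxn1*, *Hmox1* and *Txnrd1*) passed upward with a Z score taken among probes of like brightness, under which 3.17% of all genes did. All 10 brightest member probes were well above background on both arrays.

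**Figure D1:**
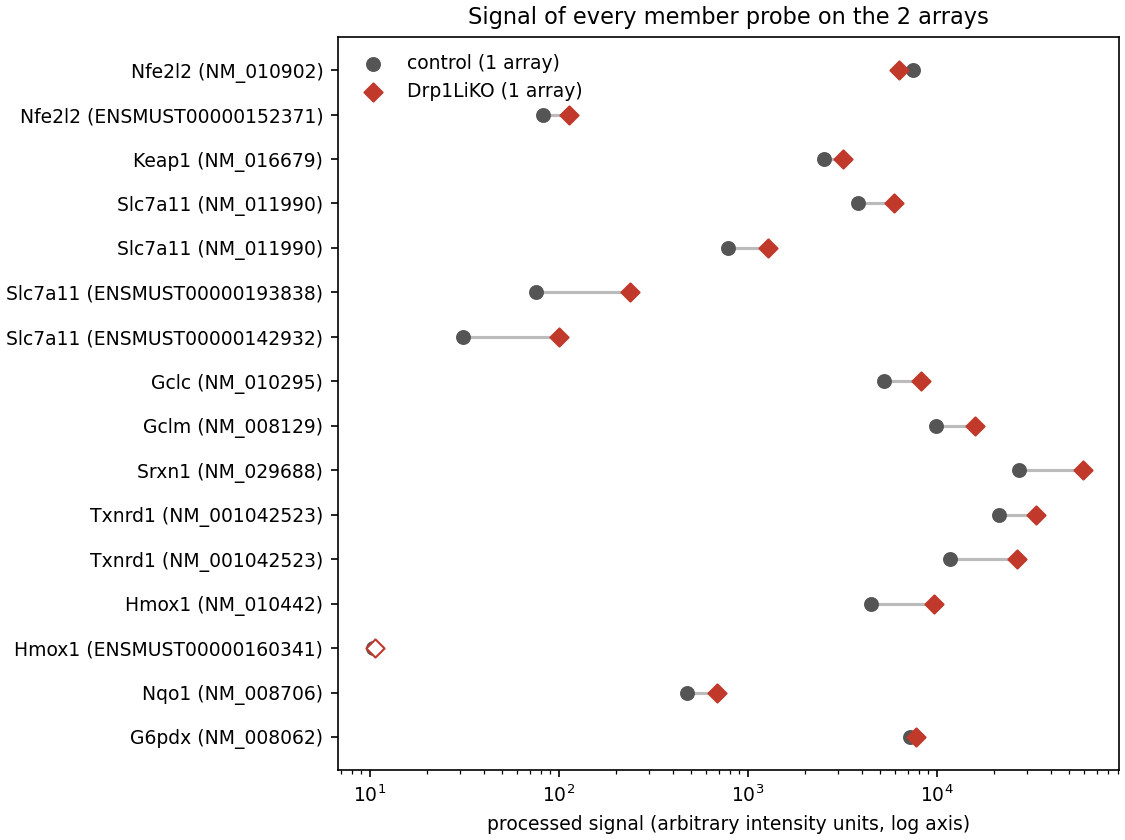
Processed signal of each of the 16 member probes (horizontal log axis, arbitrary intensity units) on the control array (gray circles) and the *Drp1*LiKO array (red diamonds), 1 array each. The other *Hmox1* probe, drawn open, was not well above background on either array, at 10.4 and 10.6. Every other pair but the brightest *Nfe2l2* probe has the *Drp1*LiKO signal to the right, before scaling.

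The regulators differed in direction. *Nfe2l2*, the transcription factor, gave 7439 on the control array and 6313 on the *Drp1*LiKO array at its brightest probe (NM_010902, chromosome 2 of mm9, 75513771 to 75513830). This was 1.34-fold lower, a log2 ratio of -0.42, and 15.5% of all genes had a lower ratio. Its other probe, designed on another transcript (ENSMUST00000152371), had signals of 82.1 and 113 and a log2 ratio of 0.28, so the direction of *Nfe2l2* depended on the probe. *Keap1*, the inhibitor that directs NRF2 to degradation, had signals of 2522 and 3181, a log2 ratio of 0.15 that was smaller than its error of 0.20.

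Among genes of glutathione synthesis, all 3 members were higher in *Drp1*LiKO cells. *Gclc*, the catalytic subunit of the ligase that makes the rate-limiting step, gave 5250 on the control array and 8190 on the *Drp1*LiKO array. *Gclm*, its modifier subunit, had signals of 9920 and 15785. After scaling these were 1.37-fold and 1.40-fold higher, log2 ratios of 0.46 and 0.49. The ratios of both subunits lay closer together than the error of either.

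*Slc7a11*, the cystine importer that supplies the cysteine of glutathione, had 4 probes, all higher in *Drp1*LiKO cells. The brightest (NM_011990) had signals of 3830 and 5883, a log2 ratio of 0.44. The other probe of NM_011990 had signals of 780 and 1269, a log2 ratio of 0.52. The probes designed on ENSMUST00000193838 and ENSMUST00000142932 were dim in control cells, with signals of 75.8 and 31.0, and reached 236 and 100 in *Drp1*LiKO cells. Their log2 ratios were 1.46 and 1.51, past the Z score threshold. The probes of *Slc7a11* spanned 1.07 on the log2 scale, more than those of 95.9% of 6055 genes with several probes, and the dim probes were designed on transcripts other than the RefSeq mRNA. The size of the difference therefore depended on the probe, whereas its direction did not. The median over its probes was 0.99, and the brightest probe stood at 0.28 in the deposited normalized values.

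In the thioredoxin system, *Srxn1* had the highest ratio of the 10 members. *Srxn1* encodes sulfiredoxin, which restores peroxiredoxins that peroxide has overoxidized. Its single probe (NM_029688, chromosome 2 of mm9, 151937009 to 151937068) gave a signal of 27230 for control and 59255 for *Drp1*LiKO cells. The log2 ratio of 0.94, 1.92-fold, was higher than that of 94.3% of all genes.

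*Txnrd1*, the cytosolic thioredoxin reductase, was measured by 2 probes of the same mRNA. At the brighter one the signals were 21312 and 33381, a log2 ratio of 0.46. At the probe printed above they were 11716 and 26464, a log2 ratio of 0.99, 1.99-fold. The pair lay 0.53 apart, more than the error of either, and both were higher in *Drp1*LiKO cells. In the deposited normalized values that probe stood at 0.43 and the brighter one at 0.56.

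**Figure D2:**
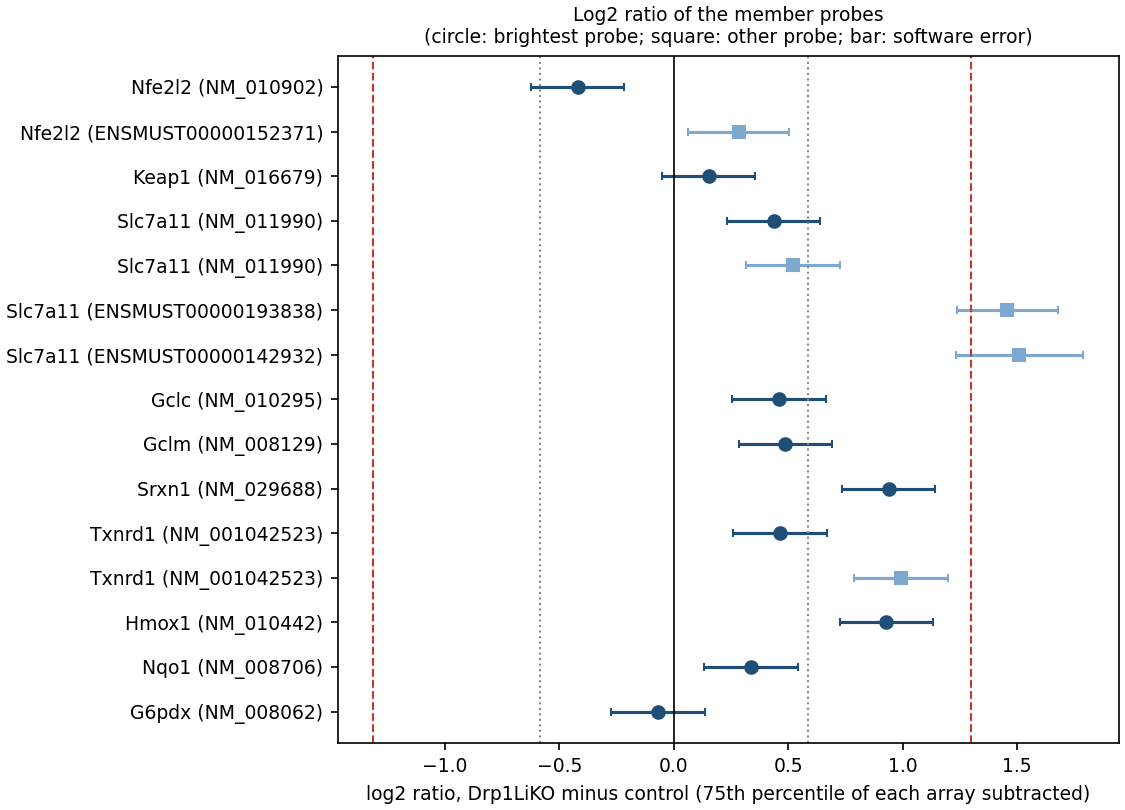
Log2 ratio (*Drp1*LiKO minus control, horizontal axis) of the 15 member probes well above background, with circles for the brightest probe of a gene, squares for other probes and bars for the software's error of the ratio. Dotted lines mark 1.5-fold and dashed lines a Z score of 2. The brightest probes run from -0.42 for *Nfe2l2* to 0.94 for *Srxn1*, and the dim *Slc7a11* probes at 1.46 and 1.51 are past the dashed line.

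*Hmox1* encodes heme oxygenase 1, which breaks heme down to biliverdin, iron and carbon monoxide. Its detected probe (NM_010442, chromosome 8 of mm9, 77624406 to 77624466) gave 4452 on the control array and 9615 on the *Drp1*LiKO array, 1.90-fold higher after scaling, a log2 ratio of 0.93. The table of values normalized by the authors holds 4656 and 665 for this probe, which makes its ratio -2.81 on the log2 scale, so the direction of *Hmox1* turned with the source of the values. Among 29462 probes well above background on the *Drp1*LiKO array, 1053 (3.57%) differed over 2-fold between that array and its deposited column, against 0 in control, and the *Hmox1* probe was 1 of them. The other 14 member probes well above background did not differ over 2-fold. The array value is given as the main one because it comes from the scanned spots labeled as this sample. Which of the 2 sources belongs to the sample was not tested, nor was the cause of the mismatch.

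**Figure D3:**
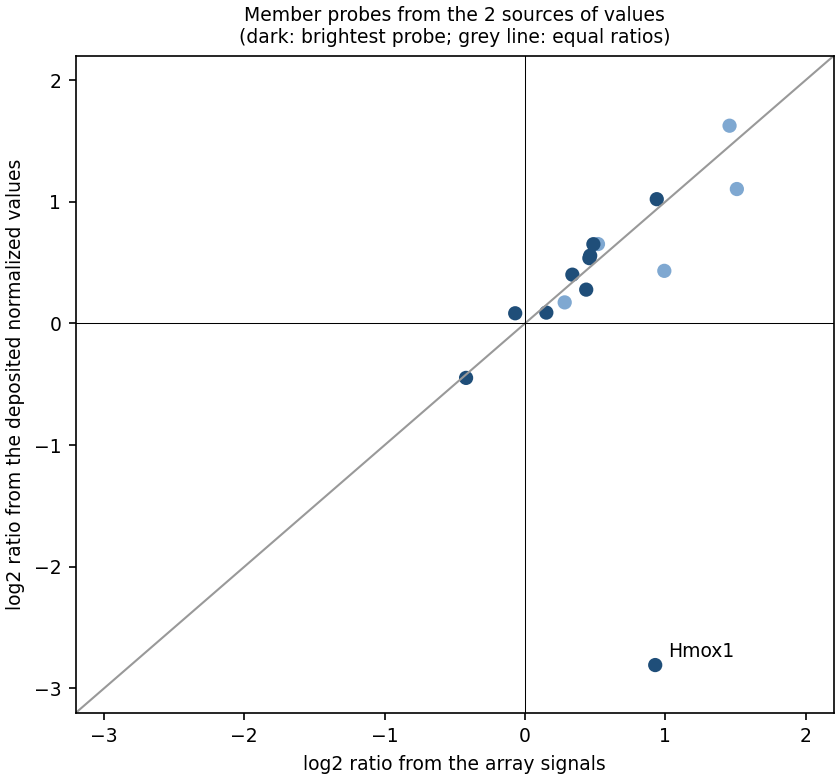
Log2 ratio (*Drp1*LiKO minus control) of 15 member probes from the array signals (horizontal axis) against the same from the deposited normalized values (vertical axis), with the gray line for equal ratios. *Hmox1* stands alone at 0.93 and -2.81, and the other brightest probes lie near the line.

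Macrophages of the liver also express *Hmox1*, and markers of other liver cells differed between these cultures. Of 15 markers of Kupffer cells and macrophages, 10 were well above background on both arrays. Of these, 9 were higher in *Drp1*LiKO cells, where 44.5% of all genes were, and 8 past the Z score threshold, where 3.5% were. A further 3, *Clec4f*, *Spic* and *Vsig4*, were well above background on the *Drp1*LiKO array only, so they entered through the array on which they are brighter. Before scaling, the signals of all 13 summed to 6552 on the control and 22589 on the *Drp1*LiKO array. *Cd163* and *Timd4* were not well above background on either array. The log2 ratios of the 10 ran from -0.01 for *Slc40a1* to 3.45 for *Marco*. Of 9 endothelial markers, 7 were well above background on both arrays and all 7 were higher, with log2 ratios from 0.70 for *Egfl7* to 2.47 for *Kdr*, and *Lyve1* and *Tek* were well above background in *Drp1*LiKO cells only. The signals of the 9 summed to 4262 and 8960 before scaling. The part of these cells in the values of *Hmox1* and of the other members was not tested.

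Hepatocyte markers were higher in 6 of 12 and lower in 6, from -0.78 for *Cyp2e1* to 1.28 for *Tat*, with a median of -0.04. Their signals summed to 856872 and 911884 before scaling. This was a ratio of 1.06, against 1.08 for the summed signals of all genes compared. In whole cultures, fewer cells of a type and less RNA per cell cannot be told apart. Of 8 stellate cell markers, 3 were well above background on both arrays, all higher, and 3 (*Col3a1*, *Des* and *Pdgfrb*) in *Drp1*LiKO cells only. Of 6 cholangiocyte markers these numbers were 3, of which 1 was higher, and 1 (*Krt7*). For neutrophils 1 of 6 markers was well above background on both arrays, for T and NK cells 2 of 6, for B cells 0 of 4 and for erythroid cells 2 of 4, with 1 higher, an erythroid one. *Ly6g* of neutrophils, *Ms4a1* of B cells and *Hbb-b1* of erythroid cells were well above background in *Drp1*LiKO cells only.

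*Nqo1*, a quinone reductase long used as a readout of NRF2 activity, gave 475 on the control array and 681 on the *Drp1*LiKO array. Its log2 ratio of 0.34, 1.26-fold, exceeded the software's error and was higher than that of 82.1% of all genes. *G6pdx*, glucose-6-phosphate dehydrogenase, feeds the pentose phosphate pathway and so supplies NADPH to the thioredoxin and glutathione reductases. It had signals of 7165 and 7750, a log2 ratio of -0.07 after scaling, within the error of 0.20, and its ratio was 0.08 in the deposited normalized values.

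Other genes of the pathway were read from 7 lists of 88 genes, 86 of them detected. The median over these 86 was -0.03 on the log2 scale, against -0.05 for all genes compared, of which 44.5% were higher. A list of other NRF2 target enzymes and transporters had a median of 0.40, with 16 of 22 genes higher and 10 past 1.5-fold upward, where 10.3% of all genes were. None of them was 1.5-fold lower. The highest was *Cbr3*, a carbonyl reductase, with signals of 2164 (control) and 10326 (*Drp1*LiKO), a log2 ratio of 2.07, the only gene of this list past the Z score threshold. The lowest was *Ephx1*, microsomal epoxide hydrolase, at -0.22.

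The other 9 of those 10 genes are named here after their values were seen. They comprised 6 glutathione transferases, which attach glutathione to electrophiles. *Gsta4*, which acts on products of lipid peroxidation, had signals of 510 and 1311, a log2 ratio of 1.18. *Gsta2* and *Gsta3* had log2 ratios of 0.67 and 0.73, and *Gstm1*, *Gstm3* and *Gstm4* had ratios of 0.84, 0.87 and 0.86. Because transferases of a class resemble each other, a probe may also bind transcripts of its relatives. *Akr1b8*, an aldo-keto reductase, stood at 1.06, *Ces1g*, a carboxylesterase, at 0.80 and *Abcc2*, the canalicular exporter of conjugates, at 0.77. The same 10 genes were past 1.5-fold under the 6 alternatives that can move a ratio, the deposited values included. Of these alternatives, the median of probes cannot move a gene with 1 probe. In the deposited values *Cbr3* stood at 1.66, with a Z score of 1.96, short of the threshold.

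The enzymes that work with the members mostly did not differ in the same way. In the list of glutathione synthesis and use, 3 of 13 detected genes were higher, where 44.5% of all genes were. Its median was -0.08, against -0.05 for all genes. *Gpx2*, a glutathione peroxidase best known from the gut, was the highest, with signals of 82.7 and 250, a log2 ratio of 1.41, past the Z score threshold, though its Z score was 1.74 in the deposited normalized values. The lowest was *Glrx*, glutaredoxin, at -0.52. *Slc3a2*, the chain that pairs with *Slc7a11* at the membrane, had signals of 41012 and 40630, a log2 ratio of -0.20, and it is named after its value was seen. Its 3 kept probes, of which this was the brightest, spread from -0.46 to 0.15. The deposited normalized values put *Slc3a2* at 0.15. Its sign therefore differed between probes and between sources.

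In the thioredoxin and peroxiredoxin list, 3 of 14 genes were higher, none past 1.5-fold in either direction, with a median of -0.07. Ratios ran from -0.40 for *Prdx3*, the mitochondrial peroxiredoxin, to 0.37 for *Msra*, a methionine sulfoxide reductase. Both members of this system were thus above every gene of the list at their brightest probes. The NADPH list had a median of -0.08, from -0.82 for *H6pd*, the hexose-6-phosphate dehydrogenase of the endoplasmic reticulum, to 0.34 for *Idh1*, cytosolic isocitrate dehydrogenase. At its brightest probe *Tkt*, transketolase, stood at -0.10 on the arrays and at -2.39 in the deposited normalized values. There it lay lower than *H6pd* at -0.82. The 3 probes of *Tkt* ran from -0.10 to 1.66 on the arrays, the highest past the Z score threshold. The 2 probes of *Rpia* stood at 0.28 and 1.42 and those of *Pgd* at -0.16 and 0.85, the brightest first. By the median of probes *Rpia* was past 1.5-fold upward. *Tkt*, *Rpia* and *Pgd* are named after their values were seen. The NADPH list had 4 of 10 genes higher, where 44.5% of all genes were, and 1 past 1.5-fold downward, where 10.3% were. The ratio of *G6pdx* lay inside the range of this list. The list of heme and iron handling had a median of -0.09, with 1 of 7 genes higher. It ran from -0.31 for *Blvra* to 0.19 for *Blvrb*, which both encode biliverdin reductases. The counts of these lists moved with the scaling. Relative to spike-in probes, 5 genes of the glutathione list, 6 of the thioredoxin list and 3 of the heme list were higher. That scaling raised all genes, whose median was -0.01 instead of -0.05. The share of 44.5% does not apply to these counts, and the share under that scaling is not given here.

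**Figure D4:**
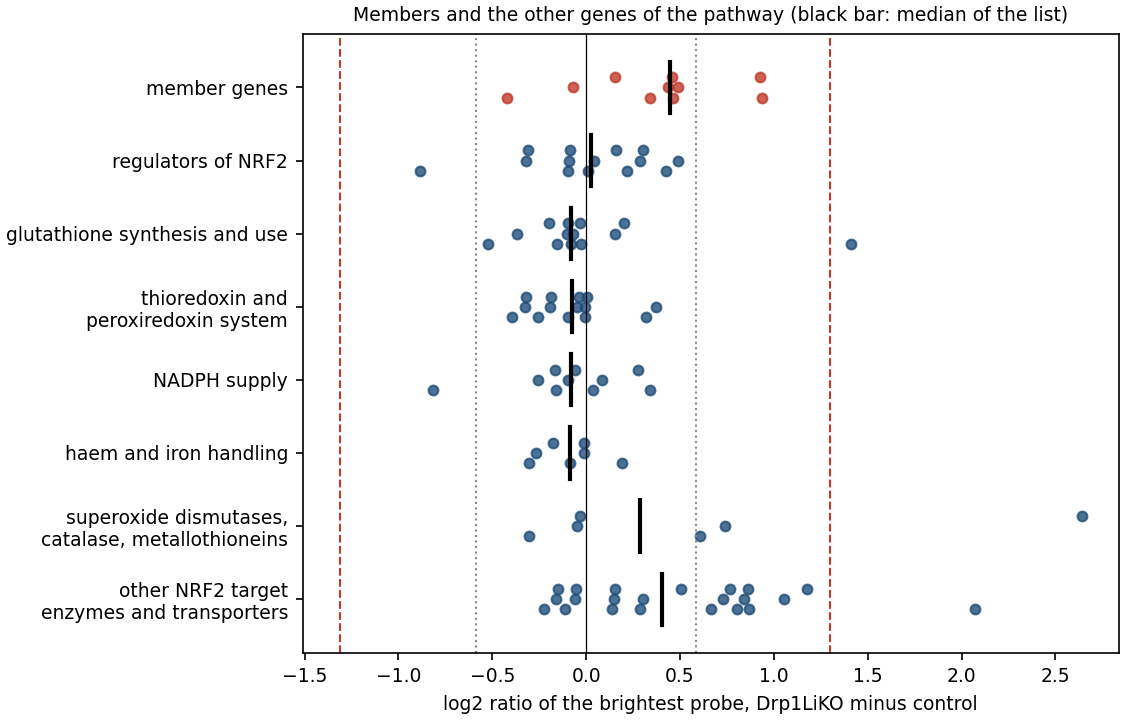
Log2 ratio (*Drp1*LiKO minus control, horizontal axis) of the brightest probe of each detected gene in the member group (red) and in 7 pathway lists (blue), with black bars for medians, dotted lines at 1.5-fold and dashed lines at a Z score of 2. The point of *Sod3*, at 2.64, is a lower bound. The medians of the members and of the other NRF2 targets, 0.45 and 0.40, lie to the right of those of the glutathione, thioredoxin, NADPH and heme lists, from -0.09 to -0.07.

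Superoxide dismutases, catalase and metallothioneins had a median of 0.29 over 6 genes, 3 of them higher and past 1.5-fold. Of all genes, 10.3% were 1.5-fold higher. *Sod3*, the extracellular superoxide dismutase, was well above background in *Drp1*LiKO cells only, with a signal of 129, at least 6.23-fold higher than in control, and was past a Z score of 2. With normexp background correction its log2 ratio was 1.12. *Mt1* and *Mt2*, metallothioneins that bind zinc and also scavenge oxidants, had log2 ratios of 0.74 and 0.61 and are named after their values were seen. The lowest was *Sod2*, the mitochondrial superoxide dismutase, at -0.31. Without *Sod3*, on genes well above background on both arrays, this median was -0.03.

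Regulators of NRF2 other than *Keap1* had a median of 0.03 over 14 genes, 8 of them higher, where 44.5% of all genes were. None was past the Z score threshold. The highest was *Mafg*, a small MAF partner of NRF2, with signals of 7302 and 11626 and a log2 ratio of 0.49. The lowest was *Bach2*, a repressor that competes for the same element, at -0.88, the single gene of this list past 1.5-fold, with a control signal of 48.8.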

How the data were processed

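Hepatocyte cultures from control and *Drp1*LiKO mice were profiled with 1 Agilent mouse array of 60-base probes per genotype. The authors deposited, for each array, the spot intensity from Agilent Feature Extraction (9.5.1.1 in the submitters' processing notes, 10.7.1.1 in the file headers), as a raw mean with local background and as a processed signal with background subtracted, and a normalized intensity table of both arrays, whose method is not given in the sources used here. In that table the rank correlation with the array across probes was 1.00 for control and 0.958 for *Drp1*LiKO, and the medians of both columns were 19.1.

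Control spots and outlier spots (71 in control, 63 in *Drp1*LiKO) were dropped. Replicate spots were averaged as log2 processed signal, from which each array's 75th percentile was then subtracted (signals of 313 and 356). A probe was kept, 30275 in all, if over 50% of its spots on either array stood well above background. Signals not well above it were raised to the lowest that was (18.2 and 15.0), and a gene was its brightest probe. No spot was saturated (0). The Z score used the mean (-0.01) and SD (0.65) of all kept ratios. Coordinates of probes come from the array files (mm9), and exon and UTR positions were not used here.

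The members and gene lists were chosen with earlier results of these data known. Named genes were all members, *Dnm1l*, pathway genes past the Z score threshold and the extremes of each list. Of the listed names, only *Gsta1* had no probe matched by symbol or RefSeq synonym. Lists are described by counts and medians. The steps were tested on simulated data. Calculations used Python 3.11.15, numpy 2.4.6, pandas 2.3.3, matplotlib 3.10.9, R 4.3.3 and limma 3.58.1.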

Additional observations from a re-analysis of the deposited data

How the results depend on the processing

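The alternatives were quantile normalization, scaling to 7 spike-in probes, normexp background correction, the deposited normalized values, a stricter filter on dim probes and none, no floor, inclusion of outlier spots, the median of a gene's probes, every other probe, and both other Z scores. The filters and the floor cannot move a member's ratio, since the brightest probes were well above background on both arrays. Over the 6 alternatives that can, 58 of 60 member values kept their direction. The exceptions, both in the deposited values, were *Hmox1* (-2.81) and *G6pdx* (0.0836), and the cause was not tested. Many of the 60 values had little or no room to move. Keeping outlier spots left every member ratio nearly unchanged, and the median of probes cannot move a gene with 1 kept probe. The count therefore does not measure stability. *Nfe2l2* was 0.28 at its other probe. The median of the members was 0.34 in the deposited values, in which 1 member was 1.5-fold lower, and 4 members were 1.5-fold higher by the median of probes.

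Past the Z score threshold were 2 members with normexp correction, no filter on dim probes or a robust Z score (*Srxn1* and *Hmox1*), 3 with a Z score taken among probes of like brightness (*Txnrd1* also) and 1 with the deposited values (*Hmox1*, lower). Of pathway genes, 3 passed in the main setting and 8 with normexp correction or no filter, all higher. With the robust Z score 14 passed, 12 higher and 2 lower (*Bach2* and *H6pd*). Among probes of like brightness 12 passed, 11 higher and 1 lower (*H6pd*). Only 2 passed with no floor (without *Gpx2*) and 2 with the deposited values (*Sod3*, and *Tkt* lower, without *Cbr3* and *Gpx2*). List medians changed sign for the thioredoxin list in the deposited values (0.00687), the NADPH list by the median of probes (0.00345) and the superoxide dismutase list under the stricter filter, which needs both arrays above background (-0.0344, since *Sod3* drops out). Of all genes, 3.5% were higher and 2.81% lower past the threshold, against 3.63% and 2.71% with normexp correction. With no filter the shares were 3.66% and 1.61% of 37071 genes, which include those not well above background on either array. They were 8.54% and 7.16% with the robust Z score, 3.17% and 3.62% among probes of like brightness and 3.1% and 2.96% in the deposited values. The numbers of genes were 705 higher and 566 lower, 1355 higher with no filter, and 1722 and 1443 with the robust Z score. No paired analysis was possible because each group has 1 array. The number of arrays limits every value.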
